A study of Homo sapiens with 12 samples.

Results

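MCF10A cells, a human mammary epithelial line, carried a Dox-inducible TAZ-4SA, a form of TAZ in which serines phosphorylated by the LATS kinases are changed to alanine. The comparison described here set the 3 libraries taken after 48 h in 0.05 µg/ml doxycycline (Dox 48 h) against the 3 libraries of cells without Dox (No Dox), so that 6 of the 12 libraries of the time course entered it. Members were taken by their sample titles, and every gene with enough counts was compared. All 6 libraries came from the transduced line in the same medium with horse serum, EGF, hydrocortisone, cholera toxin and insulin. The labels do not say whether the line was 1 clone or a pool, or whether the replicates were separate cultures, so the p-values measure the spread between these libraries, which may be technical. No library of Dox-treated cells without the transgene and no later No Dox time point was analysed here, so TAZ-4SA, Dox itself and time in culture cannot be told apart.

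TAZ is a transcriptional coactivator of the Hippo pathway. When the kinases LATS1 and LATS2 phosphorylate TAZ or its paralog YAP, the protein is held in the cytoplasm or degraded. Unphosphorylated TAZ enters the nucleus and binds the TEAD transcription factors, which carry the DNA contact and recruit TAZ to genes of growth, matrix and cytoskeleton. In the mammary gland TAZ is known for its link to basal and stem-like epithelial states.

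The gene that encodes TAZ, WWTR1 (chr3:149517235-149736714, minus strand, GRCh38), was examined first as a check of the labels. WWTR1 was at 70.7, 69.5 and 75.0 counts per 1000000 (CPM) in the No Dox libraries and at 763, 860.2 and 907 CPM at 48 h. Every 48 h library was above every No Dox library, and the log2 fold change was 3.55 ± 0.072 (adjusted p = 3.68e-20). Per length, WWTR1 went from 26.6 ± 2.88 to 994 ± 152 transcripts per 1000000 (TPM; SD, n = 3), a ratio of 37.3, and the effective length given for the gene was 3229 ± 253 nt without Dox and 1067 ± 42.2 nt at 48 h. The gene TAFAZZIN, which is also abbreviated TAZ but encodes a mitochondrial enzyme, was at 37.2 ± 2.13 and 22.7 ± 1.16 CPM and was not called, though with the effective gene lengths of RSEM as offsets in edgeR it was called lower (-1.06).

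CPM here refer to the TMM-scaled library. A gene was called when the adjusted p of edgeR's quasi-likelihood test, Benjamini-Hochberg adjusted over all genes tested, was under 0.05 and the log2 fold change was at least 1 in size. Values are log2 fold changes of 48 h over No Dox with their standard error unless another comparison is named. Total counts ran from 15382564 to 22956337 in the 6 libraries. Epithelial markers summed to 9996 to 10740 CPM without Dox and to 10880 to 11790 CPM at 48 h, with 9 of 10 detected without Dox and KRT19 at 0 counts there. Fibroblast markers summed to 54.5 to 56.4 and then 1.92 to 3.03 CPM, with 4 of 8 at 0 in each group. Decorin (DCN) made up most of that sum, and the fibrillar collagen genes COL1A2 and COL3A1 had no counts. Leukocyte markers summed to 26.1 to 31.3 and then 5.45 to 6.61 CPM, with CD3E and MS4A1 at 0 in both groups and PTPRC at 0 at 48 h. Endothelial markers summed to 36.6 to 37.9 and then 4.02 to 4.22 CPM, mostly from KDR and PECAM1, while CDH5 and VWF were at 0 without Dox. Adipocyte markers stayed under 0.6 CPM. Melanocyte and neural markers summed to 19.8 to 22.2 and then 92.1 to 97.5 CPM, nearly all from TUBB3, with SOX10, TYR and S100B at 0. The labels name only MCF10A cells. In bulk RNA, fewer cells of a type and less RNA per cell cannot be told apart.

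A large part of the measured genes differed after 48 h of TAZ activation. Of 14822 genes tested, 3718 (25.1%) were called, 1578 (10.6%) higher and 2140 (14.4%) lower, and the median log2 fold change over all of them was -0.01. At least 4-fold changes were found in 419 genes upward and 826 downward, and at least 16-fold changes in 96 and 226. The No Dox and 48 h libraries did not overlap in 11096 of the 14822 genes. This held for 1546 of the genes called higher and 2103 of those called lower. Separate groups, where given below, are thus common to nearly all called genes and set no member apart. Of protein-coding genes 11% rose and 13% fell, while of 1423 long noncoding RNAs 9.14% rose and 23.3% fell. The share of counts from the lncRNA class was 1.26% ± 0.0576 without Dox and 0.803% ± 0.0182 at 48 h.

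The genes with the largest increases were near 0 without Dox. MFAP5, a microfibril-associated glycoprotein of elastic fibres, had 0.0461, 0 and 0 CPM without Dox and 39.1, 37.0 and 37.0 CPM at 48 h. The lone No Dox count gave a count ratio of 2183 (95% exact interval 391 to 86247, counting error only). OLR1, the receptor for oxidized low-density lipoprotein, went from 0.138, 0 and 0.0985 to 88.8, 94.0 and 86.0 CPM (9.92 ± 0.19, adjusted p = 2.14e-20). GJA5, the gap junction protein connexin 40, went from 0.323, 0 and 0.0985 to 129.8, 127 and 131 CPM (9.64 ± 0.16, adjusted p = 1.06e-21). In each of these genes the spread among the 3 libraries at 48 h was small beside the difference. The naming rule took the largest increases without overlap between groups, so that separation was a condition of being named. RNF150, SHISA9 and MARCHF4 rose by 6.73, 6.64 and 6.58, all from under 0.3 CPM. PSG4, whose reads may be shared with other pregnancy-specific glycoprotein genes, went from 0.0922, 0 and 0 to 7.35, 9.09 and 9.08 CPM.

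At the other end, 45 genes called lower had no count in any of the 48 h libraries. SYN3, a synapsin, was at 12.5, 12.4 and 12 CPM without Dox and at 0 in all 3 libraries at 48 h, at least 240-fold lower when the 48 h group is set to a floor of 3 counts over the group. COL28A1, a collagen with von Willebrand factor domains, was at 7.23, 7.39 and 7.39 CPM and then 0, at least 143-fold lower. DEPP1, a FOXO-induced regulator of autophagy, was at 38.8, 43.5 and 42.6 CPM and had 1 count at 48 h, a count ratio of 2424 (95% exact interval 435 to 95781). HSD17B2, which oxidizes estradiol and testosterone, went from 63.0, 59.5 and 66.4 CPM to 0, 0.131 and 0 CPM, a count ratio of 1234 (422 to 5987). PECAM1, an adhesion molecule of endothelial cells, went from 6.73, 6.38 and 6.26 CPM to 0, at least 126-fold lower. These genes were thus well measured without Dox and at or near the limit of detection 48 h later. SYN3, COL28A1, DEPP1 and HSD17B2 were named for the largest falls from at least 5 CPM, so for them that pattern was a condition of being named.

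**Figure D1:**
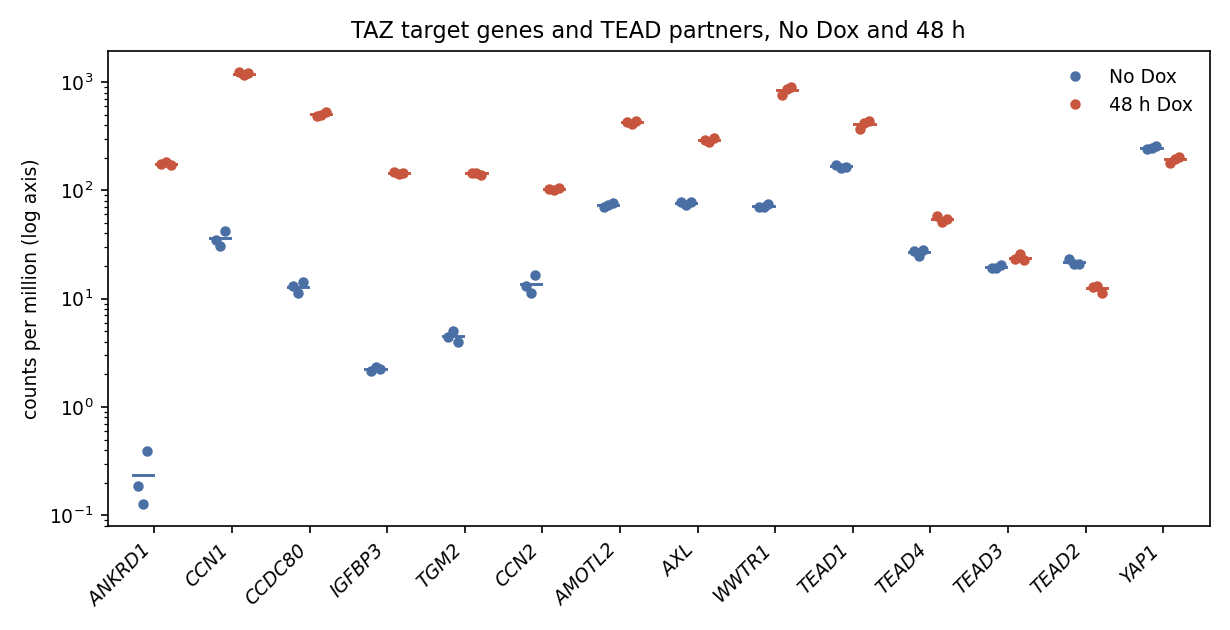
CPM on a log axis in each of the 3 No Dox and 3 Dox 48 h libraries for 8 YAP/TAZ target genes, WWTR1, its partners TEAD1 to TEAD4 and YAP1; each point is 1 library. The group means of ANKRD1, CCN1, CCDC80, IGFBP3 and TGM2 lie more than 16-fold apart, while the log2 fold changes of TEAD2, TEAD3 and YAP1 are under 1 in size.

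Canonical YAP/TAZ target genes rose as a group. Of 30 tested, 19 were called higher and 1 lower, against 10.6% and 14.4% of all genes, and their median log2 fold change was 1.96 against -0.01 for all genes. The list holds textbook YAP and TAZ targets, but like the other lists it was chosen with earlier results of these data known. CCN2 (chr6:131948176-131951372, minus strand), a secreted matricellular protein formerly named CTGF, was at 13.2, 11.2 and 16.5 CPM without Dox and at 104, 101 and 105 CPM at 48 h (2.91 ± 0.087, adjusted p = 2.09e-17). IGFBP3, which binds insulin-like growth factors, was at 2.17, 2.34 and 2.22 and then 148, 141 and 143 CPM (6.01 ± 0.075, adjusted p = 3.81e-23). TGM2, a protein cross-linking transglutaminase, was at 4.38, 5.05 and 3.99 and then 146, 146 and 138 CPM (5.01 ± 0.081, adjusted p = 1.06e-21). For all 3 genes the groups did not overlap, as in 11096 of the 14822 genes tested. The values within a group differed far less than the values between groups.

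Further targets rose by less. NUAK2, a kinase of the AMPK family, rose by 3.08, TGFB2, a ligand of the TGF-beta family, by 2.76, the matricellular protein THBS1 by 2.59, the angiomotin-like scaffold AMOTL2 by 2.54, tissue factor (F3) by 2.16, the GTPase-activating protein DLC1 by 2.12, the receptor tyrosine kinase AXL by 1.93 and endothelin-1 (EDN1) by 1.74. RBMS3, an RNA-binding protein, was the member called lower, at 33.5, 33.6 and 34.1 CPM without Dox and 14.6, 17.4 and 16.9 CPM at 48 h (-1.05 ± 0.082). Without the 48 h replicate 1 it was at -0.964, and with the effective gene lengths of RSEM as offsets in edgeR at -0.796, and it was then not called. F3 was already lower at 48 h than at 24 h, with a log2 difference of -1.09 ± 0.047, in a comparison where calls against 24 h were made for 3.08% of genes higher and 1.44% lower. ANKRD1, a nuclear ankyrin-repeat protein, was at 177 ± 5.32 CPM at 48 h and 399.7 ± 22.2 CPM at 72 h, and the difference of -1.18 ± 0.055 was called (adjusted p = 3.58e-12), where 0.938% of genes were called higher and 2.3% lower at 48 h than at 72 h. These comparisons share the 48 h libraries with the comparison to No Dox.

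TEAD factors bind the letters GGAATG, and the promoter sequences of 2 strongly changed targets are shown because they hold more than 1 copy. Promoters were RefSeq sequences of GRCh38.p14, from 250 bases before to 50 after each gene's start, searched on both strands. Capitals mark GGAATG. The ANKRD1 stretch is chr10:90921190-90921327 on the minus strand, and the CCN2 stretch is chr6:131951442-131951561 on the minus strand, running from -240 to -103 and from -189 to -70 relative to the start.
ANKRD1: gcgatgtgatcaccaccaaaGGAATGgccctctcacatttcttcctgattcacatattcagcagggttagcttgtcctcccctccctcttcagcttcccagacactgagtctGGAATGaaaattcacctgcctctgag
CCN2: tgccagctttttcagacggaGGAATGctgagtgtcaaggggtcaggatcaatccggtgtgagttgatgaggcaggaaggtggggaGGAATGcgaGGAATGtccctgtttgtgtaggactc

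The letters GGAATG were present in 8 of 21 YAP/TAZ target promoters listed (38.1%), those of CCN2, ANKRD1, FOXF2, LATS2, NUAK2, PTPN14, TGFB2 and THBS1. Among tested genes, 10819 had a promoter listed and 10.7% of these held them, and among all 27195 promoters 14%. Over the genes called at 48 h the shares were close to each other, with 12.5% of 1159 promoters of genes that rose and 11.6% of 1391 of genes that fell. The AP-1 letters TGACTCA were in 2.76% of promoters of genes that rose, 4.96% of those that fell and 3.11% of those tested. A match is a description of the letters and not a binding site.

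Of 26 Hippo pathway genes tested, 6 rose and none fell, and their median was -0.01, that of all genes. NF2 (merlin), a membrane scaffold that activates LATS kinases, was at 47.5, 42.0 and 45.3 CPM without Dox and 186, 176 and 195 CPM at 48 h (2.04 ± 0.061, adjusted p = 2.09e-17). WWC1 (KIBRA), another upstream activator, was at 81.8, 84.4 and 78.5 and then 357, 345 and 359 CPM (2.12 ± 0.048, adjusted p = 2.72e-19). LATS2 was at 37.7, 37.7 and 37.2 and then 101, 112 and 118 CPM (1.55 ± 0.065). In all 3 genes each 48 h library lay above each No Dox library. WWC2 rose by 1.15, or 0.811 with effective lengths, which was not called, AMOTL2 by 2.54 and the atypical cadherin FAT4 by 1.65, while the other 20 members were not called. The members that rose restrain YAP and TAZ in the textbook pathway.

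The partners of TAZ went different ways. Of 8 genes on this list tested, WWTR1, TEAD1 and TEAD4 were called higher. WWTR1 is the gene that the induced TAZ-4SA encodes, so its call is a check of the induction and not a result about partners. TEAD1 was at 172, 162 and 165 CPM without Dox and 368, 416 and 439 CPM at 48 h (1.29 ± 0.071, adjusted p = 6.75e-13), and TEAD4 was at 27.5, 24.8 and 28.2 and then 57.4, 51.0 and 54.3 CPM (1.01 ± 0.071), close to the fold threshold. The TEAD4 call did not hold with DESeq2 or with other scalings, nor without the 48 h replicate 1 (0.972) or the No Dox replicate 2 (0.965). TEAD3 had a log2 fold change of 0.29 ± 0.076, TEAD2 of -0.80 ± 0.093 and YAP1 of -0.36 ± 0.065, and none of the 3 was called. VGLL3, which binds TEAD proteins at the same surface as TAZ, was at 35.8 ± 0.661 and 71.6 ± 6.79 CPM and missed the threshold at 0.996 ± 0.075, while its level at 72 h was 145 ± 8.93 CPM.

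**Figure D2:**
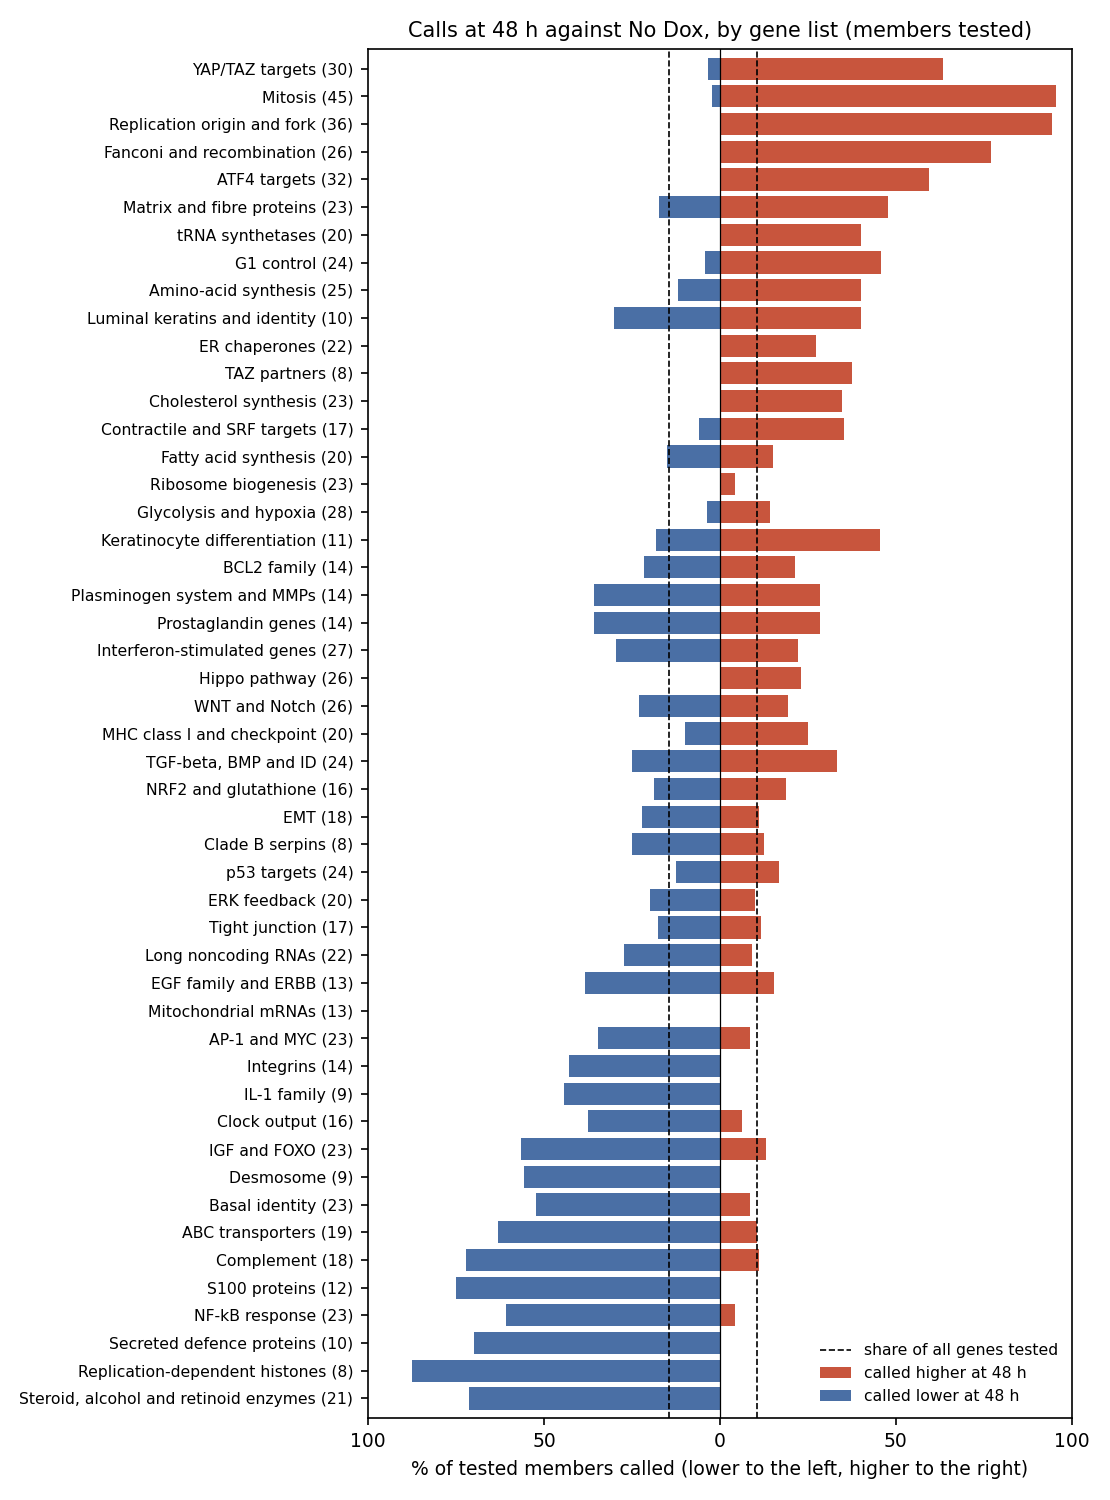
For each gene list with at least 8 members tested, the percent of tested members called lower and higher at 48 h against No Dox; dashed lines mark the 14.4% and 10.6% of all genes. Over 94% of the mitosis and replication lists were called higher, and 15 of 21 steroid, 9 of 12 S100 and 13 of 18 complement genes were called lower.

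Most genes of mitosis and of the replication machinery rose. Of 45 mitotic kinases, motors, kinetochore and APC/C genes, 43 were called higher with a median of 1.77, and of 36 genes of the replication origin and fork, 34 were called higher with a median of 1.64. CDC20, the activator of the anaphase-promoting complex, was at 60.9, 57.2 and 58.4 CPM without Dox and at 672, 622 and 601 CPM at 48 h (3.42 ± 0.058, adjusted p = 2.22e-21). RRM2, the inducible subunit of ribonucleotide reductase, was at 47.7, 49.1 and 50.3 and then 298, 299.9 and 319.9 CPM (2.64 ± 0.053, adjusted p = 2.98e-20). CDC6, which loads the replicative helicase, was at 20.6, 22.2 and 22.3 and then 134, 134 and 133 CPM (2.63 ± 0.060, adjusted p = 2.65e-19). The groups lay apart in all 3, with every 48 h library at least 4-fold above every No Dox library.

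The exceptions were few. ORC2, a subunit of the origin recognition complex, was at 51.2 ± 0.583 and 57.5 ± 2.23 CPM, and POLE, the leading-strand polymerase, at 108 ± 1.87 and 162 ± 3.59 CPM, and neither was called. Among mitotic genes the spindle protein ASPM missed the fold threshold at 0.92 ± 0.083. CDC25B, a phosphatase that activates CDK1, was the member called lower, with 282, 280.2 and 289 CPM without Dox and 139, 124 and 129.9 CPM at 48 h (-1.11 ± 0.052). TYMS, thymidylate synthase, rose by 2.42, the S-phase transcription factor MYBL2 by 2.56, and TOP2A, which decatenates chromosomes, by 1.14.

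Fanconi and recombination repair genes followed, with 20 of 26 called higher, none lower and a median of 1.29. Of 24 cyclins, CDK inhibitors, E2F and RB family genes, 11 rose and RBL2, which encodes the pocket protein p130 of quiescent cells, was called lower (-1.06 ± 0.067), though not without the 48 h replicate 1 (-0.975). Cyclin D1 (CCND1) was at 127, 124 and 121 CPM without Dox and 448, 450.3 and 468 CPM at 48 h (1.87 ± 0.046), and the CDK inhibitor CDKN1A (p21) rose as well, from 84.9, 86.1 and 97.6 to 189.7, 194 and 182 CPM (1.07 ± 0.062). E2F1 and E2F2, which drive S-phase genes, rose by 1.74 and 1.96. E2F2 was lower again at 72 h, at 6.02 ± 0.668 CPM against 15.3 ± 1.73 CPM at 48 h, a difference of 1.32 ± 0.11, and the difference of the S-phase cyclin CCNE2 was 1.19 ± 0.11. Replication genes as a group had a median difference of 0.45 above 72 h, without a member called, and mitotic genes of -0.13.

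Replication-dependent histone genes, whose S-phase transcripts end in a stem-loop in place of a poly(A) tail, did not share that direction. Of 8 tested, 7 were called lower with a median of -2.60. H2AC6 was at 17.2, 20.5 and 22.5 CPM and then 1.34, 1.91 and 1.43 CPM (-3.66 ± 0.17), H2BC21 was at 5.48, 8.02 and 5.37 and then 0.696, 0.696 and 0.713 CPM (-3.15 ± 0.26), and H1-2 at 8.52, 9.47 and 10.3 and then 2.48, 2.13 and 2.20 CPM (-2.05 ± 0.19). All 3 pairs of groups were separate. The libraries were made from poly(A)-selected RNA, so these counts reach only histone transcripts that carry a tail, and the part of that step in the difference was not tested.

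Mitotic genes share 2 promoter elements, the cell-cycle homology region (CHR, TTTGAA) and the CCAAT box bound by NF-Y, and the promoters of CCNB2 and PLK1 are shown because both genes rose and hold both elements. CCNB2 encodes cyclin B2 and PLK1 the mitotic polo kinase. Capitals mark CCAAT and TTTGAA. The stretches are chr15:59104896-59105142 on the plus strand for CCNB2 (-250 to -4) and chr16:23678796-23678885 on the plus strand for PLK1 (-93 to -4).
CCNB2: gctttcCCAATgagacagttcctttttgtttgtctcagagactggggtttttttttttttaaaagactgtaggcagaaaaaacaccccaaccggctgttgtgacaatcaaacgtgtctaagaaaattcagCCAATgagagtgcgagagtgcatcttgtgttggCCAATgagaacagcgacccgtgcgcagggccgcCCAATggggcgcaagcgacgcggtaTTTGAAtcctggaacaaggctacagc
PLK1: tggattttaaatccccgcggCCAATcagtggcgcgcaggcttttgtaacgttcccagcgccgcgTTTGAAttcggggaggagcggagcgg

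CCNB2 was at 34.2, 36.8 and 36.4 CPM without Dox and 112, 107 and 106 CPM at 48 h (1.60 ± 0.052), and PLK1 was at 54.7, 54.8 and 58.7 and then 218, 193 and 199 CPM (1.86 ± 0.059). TTTGAA was found on either strand in 24 of 37 mitotic promoters (64.9%) against 9.79% of promoters of all tested genes and 15.4% of all promoters. CCAAT was found in 28 of 37 (75.7%) against 36.8% and 35.7%. Over all genes that rose, 15.1% held TTTGAA and 45.6% held CCAAT, and over those that fell 11.8% and 32.4%. The E2F letters TTTGGCGC or TTTCCCGC were in 6.21% of promoters of genes that rose, 1.73% of those that fell and 3.69% of those tested.

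Genes of the amino-acid stress response stood out at 48 h. Of 32 targets of ATF4, the transcription factor translated when amino acids are short, 19 rose against No Dox, none fell and the median was 1.22. Of the same 32 genes, 18 were called higher at 48 h than at 24 h and none lower, where 3.08% of all genes were called higher. Against 72 h, 2 were called higher and 1 lower (GDF15, -1.05), where the shares of all genes were 0.938% and 2.3%. Of the list, 10 were among the 33 genes (0.223% of all tested) that were highest at 48 h, JDP2, a repressor of AP-1, included. A gene was counted as highest at 48 h when it was called higher than No Dox and was above both 24 h and 72 h by at least 0.5 on the log2 scale with an adjusted p under 0.05. The count of 19 was the same without the 48 h replicate 1, which stood slightly apart from the other 48 h libraries.

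CHAC1 (chr15:40952962-40956512, plus strand), which degrades glutathione, was at 0.599, 0.379 and 0.640 CPM without Dox and at 20.0, 18.5 and 21.3 CPM at 48 h (5.15 ± 0.21, adjusted p = 3.77e-15). Its mean was 2.71 ± 0.811 CPM at 24 h and 4.38 ± 0.635 CPM at 72 h, so that the 48 h libraries were 2.90 ± 0.16 above 24 h and 2.16 ± 0.15 above 72 h on the log2 scale. SESN2, a leucine sensor that restrains mTORC1, was at 20.5, 16.7 and 18.8 CPM without Dox and 44.5, 39.9 and 39.6 CPM at 48 h (1.14 ± 0.084), and its means at 24 h and 72 h, 17.4 ± 1.72 and 18.9 ± 0.172 CPM, were near that of No Dox. The pseudokinase TRIB3, an inhibitor of AKT and of ATF4, was at 45, 42.0 and 46.1 and then 139, 123 and 121 CPM (1.52 ± 0.086). For these 3 genes the No Dox and 48 h libraries did not overlap. The 48 h mean was the highest of the 4 time points, which the rule for genes highest at 48 h requires.

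Transporters and enzymes of the same response moved with them. SLC1A4, a neutral amino-acid transporter, rose from 1.47, 1.2 and 1.72 to 27.7, 24.1 and 26.6 CPM (4.13 ± 0.13), and the glutamine transporter SLC1A5 rose by 1.09. PSAT1, the transaminase of serine synthesis, was at 53.4, 51.4 and 52.2 CPM without Dox and 490.4, 504 and 484 CPM at 48 h (3.23 ± 0.048, adjusted p = 3.29e-22), and the next enzyme, PSPH, was at 15.4, 15.3 and 16.7 and then 60.7, 62.0 and 57.8 CPM (1.93 ± 0.067). PSAT1 was 1.65 ± 0.044 above 24 h and 0.91 ± 0.043 above 72 h. STC2, a secreted glycoprotein of stressed cells, was at 88.4 ± 7.24 CPM without Dox, 137 ± 5.11 at 24 h, 444 ± 5.07 at 48 h and 262 ± 7.83 at 72 h. ADM2, an adrenomedullin-like peptide that was on none of the lists, went from 0.184, 0.189 and 0.788 to 14.1, 12.3 and 12.6 CPM (5.01 ± 0.29), and VLDLR, a lipoprotein receptor, was 0.62 ± 0.12 above its 72 h level.

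ATF4 itself was not called, with 392, 402 and 405 CPM without Dox and 702, 651 and 634 CPM at 48 h (0.73 ± 0.053). DDIT4 was at 0.63, CHOP (DDIT3) at 0.55 and GDF15 at 0.57, also not called against No Dox. DDIT4 and GDF15 were nevertheless higher at 48 h than at 24 h, by 1.81 ± 0.051 and 2.02 ± 0.17. Asparagine synthetase (ASNS) was at 24.3, 24.3 and 24.1 CPM without Dox and 205, 203 and 192 CPM at 48 h (3.04 ± 0.056), and remained at 165 ± 5.13 CPM at 72 h.

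On the amino-acid synthesis list, which shares members such as PSAT1 and PSPH with the ATF4 list, 10 of 25 genes rose and 3 fell. The ones that fell were GLUL, ASS1 and PRODH, a degrading enzyme that is also on the list. GLUL (chr1:182378098-182392206, minus strand), which makes glutamine from glutamate and ammonia, was at 2216, 2175 and 2260.4 CPM without Dox and 161, 156 and 159 CPM at 48 h (-3.80 ± 0.050, adjusted p = 4.65e-23). PRODH, which oxidizes proline, was at 21, 20.1 and 20.4 and then 2.04, 3.22 and 2.79 CPM (-2.93 ± 0.16), and ASS1 of arginine synthesis was at 479.9, 485 and 489.8 and then 232, 216 and 214 CPM (-1.14 ± 0.055). The groups were separate in all 3. GPT2, a mitochondrial alanine transaminase, rose by 1.90.

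Among 20 cytosolic tRNA synthetases, 8 rose and none fell, with a median of 0.89. MARS1, GARS1 and CARS1, which charge methionine, glycine and cysteine, were among the genes highest at 48 h, above 24 h by 0.67, 0.97 and 1.04 and above 72 h by 0.64, 0.63 and 0.60. AARS1 was at 114, 108 and 112 CPM without Dox and 352, 351 and 343 CPM at 48 h (1.64 ± 0.045). Of 22 ER chaperones and stress sensors, 6 rose and none fell, with HSPA5 (BiP) at 1.16 ± 0.055, and none was called against 24 h or 72 h.

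**Figure D3:**
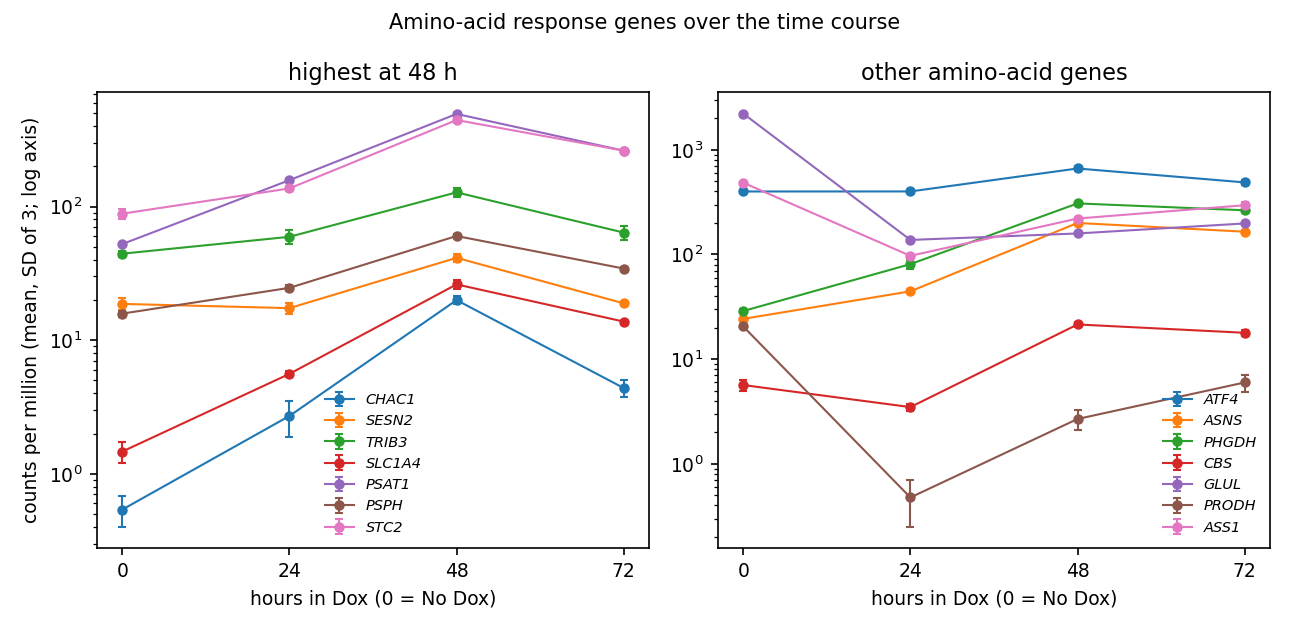
Mean CPM on a log axis with SD (n = 3 libraries) in No Dox (0 h) and after 24, 48 and 72 h in Dox for amino-acid stress genes that were highest at 48 h (left) and for ATF4, ASNS, PHGDH, CBS, GLUL, PRODH and ASS1 (right). CHAC1 rises from 2.71 CPM at 24 h to 19.9 CPM at 48 h and is at 4.38 CPM at 72 h.

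The amino-acid response element bound by ATF4 and CEBP proteins reads TGATGCAA or TGATGAAA, and the promoters of CHAC1 and ASNS are shown because both genes rose at 48 h and hold it. Capitals mark the element, which stands as TTGCATCA on the strand printed for CHAC1. The stretches are chr15:40953242-40953289 on the plus strand for CHAC1 (-229 to -182) and chr7:97872449-97872496 on the minus strand for ASNS (-88 to -41).
CHAC1: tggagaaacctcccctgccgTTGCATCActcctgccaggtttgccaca
ASNS: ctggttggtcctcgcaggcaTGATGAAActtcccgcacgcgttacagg

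The element was present in 3 of 27 promoters of the ATF4 list (11.1%), those of CHAC1, SLC7A1 and ASNS, against 0.897% of promoters of tested genes and 2% of all promoters. Promoters of all genes that rose held it in 1.81% and those of genes that fell in 1.22%.

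Other genes with their highest level at 48 h were on none of the amino-acid lists. ALPP, a placental alkaline phosphatase, was at 5.02, 5.24 and 5.42 CPM without Dox, 16.7 ± 1.15 at 24 h, 110.2, 101 and 104 at 48 h and 52.1 ± 10.2 at 72 h. PPME1, a protein phosphatase methylesterase, was at 49.3 ± 3.73 CPM without Dox, 241 ± 6.98 at 24 h, 635 ± 15.9 at 48 h and 411 ± 37.3 at 72 h. KIF21B, a kinesin, was 2.79 ± 0.12 above 24 h and 0.78 ± 0.10 above 72 h, and the complement receptor C5AR1, at 2.48, 1.87 and 1.62 CPM at 48 h, was 4.2 ± 0.51 and 3.15 ± 0.43 above them. The adhesion molecule L1CAM, the vasoconstrictor EDN2 and DENND2A were in the same set. L1CAM went from 6.36, 5.12 and 7.19 CPM without Dox to 50.6, 50.5 and 53 CPM at 48 h (3.03 ± 0.11).

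By the mirrored rule 25 genes (0.169% of all tested) were lowest at 48 h. NOTCH3 was at 8.52, 8.59 and 10.2 CPM without Dox and had 1 count at 48 h, a count ratio of 535 (95% exact interval 95.7 to 21187), with 0.346 ± 0.167 CPM at 24 h and 0.261 ± 0.134 at 72 h. SNCG, gamma-synuclein, was at 52.1, 53.8 and 53.3 and then 2.93, 3.35 and 2.40 CPM (-4.17 ± 0.10), with differences of -1.01 from 24 h and -1.35 from 72 h. CSF3, the granulocyte growth factor G-CSF, went from 57.5, 65.4 and 65.2 to 0.745, 1.17 and 1.49 CPM (-5.81 ± 0.14). SDCBP2, a scaffold protein, fell to 2.63, 1.70 and 1.56 CPM from 49.2, 48.6 and 50.4 CPM. TYMP, thymidine phosphorylase, GSN, the actin-severing gelsolin, and the laminin chain LAMA1 were in the same set, with log2 fold changes against No Dox of -3.24, -2.60 and -1.57. CD68 and OR2A7 were also in the set, and their reads may be shared with other genes. The sets rest on 3 comparisons that share the 48 h libraries. Of the 33 genes highest at 48 h, 31, 31 and 27 remained without the 48 h replicate 1, 2 and 3, and 25 with effective lengths in edgeR. Of the 25 lowest, 18, 11 and 14 remained without these libraries and 9 with effective lengths.

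Keratin composition was remodelled. Keratins are the intermediate filaments of epithelia, and mammary luminal cells carry the simple pair KRT8 and KRT18 while basal cells carry KRT5, KRT14, KRT15 and KRT17. KRT8 (chr12:52897187-52949954, minus strand) was at 203, 210.2 and 219 CPM without Dox and 1727, 1659 and 1564 CPM at 48 h (2.97 ± 0.059), and KRT18 was at 353, 370.0 and 380.4 and then 1647, 1546 and 1493 CPM (2.09 ± 0.060). KRT7 was at 2032, 1994 and 2125 and then 5114, 4702 and 4685 CPM (1.24 ± 0.050). KRT17 (chr17:41619442-41624842, minus strand) was at 2316, 2316 and 2467 CPM and then 572, 525 and 491 CPM (-2.16 ± 0.072), and KRT15 at 198, 186 and 205 and then 4.67, 4.39 and 4.02 CPM (-5.48 ± 0.11). The annotated spans of KRT8 and KRT18 overlap on opposite strands, and no strand setting of the counting was stated, so reads from the overlap are uncertain between them. The simple keratins were thus higher in every 48 h library and KRT17 and KRT15 lower in every one. KRT5 was at 3569, 3346 and 3649 and then 1989, 1901 and 1870.1 CPM, a log2 fold change of -0.87 ± 0.051 that was not called, and KRT14 was at -0.014.

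Per length, KRT5 and KRT17 made up 22.6% ± 0.359 and 25.5% ± 0.264 of the summed keratin TPM without Dox (SD, n = 3) and 7.69% ± 0.138 and 3.59% ± 0.118 at 48 h. KRT7 went from 20.8% ± 0.0483 to 31.5% ± 0.323, KRT8 from 2.2% ± 0.0399 to 9.63% ± 0.171 and KRT18 from 3.9% ± 0.123 to 10.5% ± 0.0898. The hair keratins KRT81 and KRT86, summed because their reads may be shared, went from 17.0% ± 0.22 to 30.9% ± 0.276. KRT6A, KRT6B and KRT16 together held 5.52% ± 0.139 and 5.75% ± 0.136. In TPM the mean of KRT5 was 2009 without Dox and 1132 at 48 h, and that of KRT17 was 2270 and 528.9, so both were still detected at 48 h while their share was lower.

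**Figure D4:**
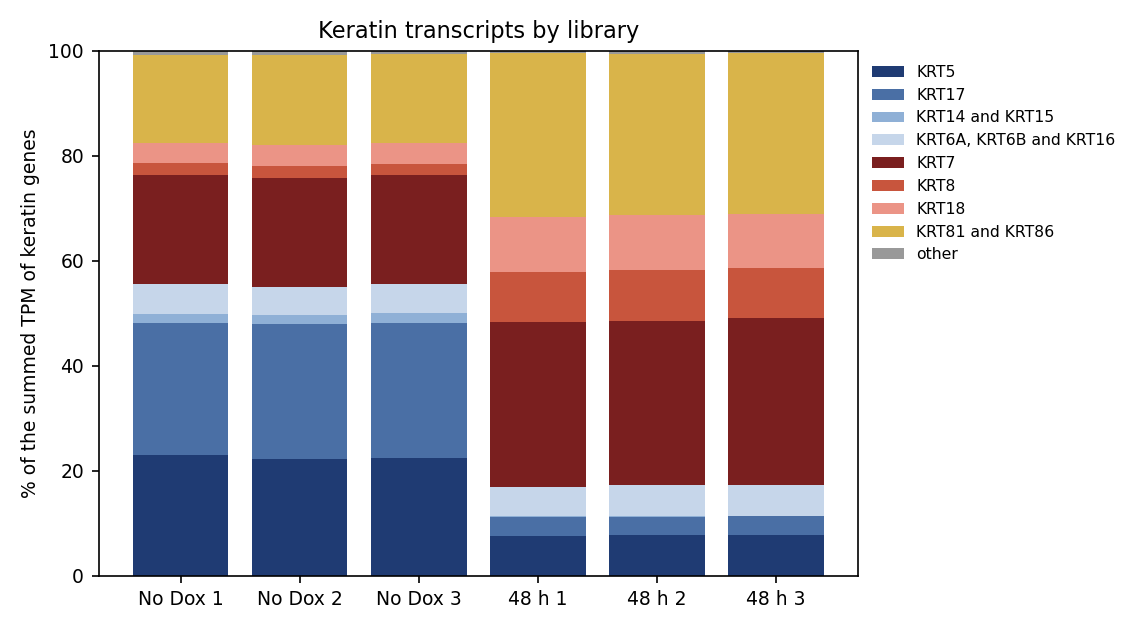
Percent of the summed keratin TPM taken by each keratin or keratin group in each of the 3 No Dox and 3 Dox 48 h libraries, as stacked bars that add to 100. KRT5 and KRT17 take 22.6% and 25.5% on average without Dox and 7.69% and 3.59% at 48 h, and the 3 libraries of a group look alike.

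Of the keratins of stratified epithelia, KRT4, KRT13 and KRT80 rose while KRT6B, KRT10 and KRT15 were called lower. KRT13 was at 1.34, 0.758 and 0.788 CPM without Dox and 24.0, 27 and 19.3 CPM at 48 h (4.58 ± 0.20), with a log2 difference from 72 h of -1.89, and KRT80 rose by 1.97, with a difference from 72 h of 1.13. The list of cornified envelope and terminal differentiation genes had 11 members tested, of which 5 rose, KRT4, KRT13 and KRT80 again among them. The 2 that fell were the suprabasal keratin KRT10 (-1.84 ± 0.078) and the plakin PPL (-1.37 ± 0.059). The members of the list summed to 670 to 700 CPM without Dox and 476 to 499 CPM at 48 h.

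Basal identity genes fell more often than they rose. Of 23 tested, 12 fell and 2 rose, with a median of -1.24. TP63 (chr3:189631389-189897276, plus strand), the master transcription factor of basal epithelia, was at 77.5, 76.5 and 78.1 CPM without Dox and 2.14, 2.61 and 3.57 CPM at 48 h (-4.83 ± 0.11, adjusted p = 2.24e-19). NGFR, a basal surface receptor, was at 16.6, 15.8 and 14.9 and then 0.199, 0.0870 and 0.389 CPM (-6.21 ± 0.26). Integrin beta-4 (ITGB4) of the hemidesmosome was at 1518, 1457 and 1584 and then 365, 343 and 383 CPM (-2.06 ± 0.066), and its partner collagen COL17A1 was at 467, 415 and 461 and then 48.6, 51.0 and 49.6 CPM (-3.17 ± 0.059). No 48 h library reached a No Dox library in any of the 4. The laminin-332 chain LAMB3, the plakin DST and the smooth muscle actin ACTA2 were called lower, at -1.29, -1.37 and -1.24. The 2 that rose, the light chain kinase MYLK and the oxytocin receptor OXTR, had under 5 CPM in every library, and the call of OXTR was lost without the No Dox replicate 1 (0.871), the No Dox replicate 3 (0.95) or the 48 h replicate 3 (0.952).

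Luminal genes did not move together. Of 10 tested, KRT7, KRT8, KRT18 and GATA3, a luminal transcription factor at 11.4, 11.2 and 13.3 and then 28.9, 27.2 and 30.1 CPM, rose, while MUC1, ELF3 and CLDN4 fell. GATA3 was at 0.990 with DESeq2 and effective lengths and was then not called. ELF3, an epithelial ETS factor, was at 96.3, 102 and 105 CPM without Dox and 9.29, 9.88 and 6.74 CPM at 48 h (-3.53 ± 0.093), and MUC1, a luminal mucin, was at 204, 188 and 186 and then 94.1, 87.6 and 91.7 CPM (-1.08 ± 0.073). MUC1 had been lower at 24 h, at 27.3 ± 4.63 CPM.

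Of 9 desmosome genes, 5 fell and none rose. DSG3, a desmosomal cadherin of stratified epithelia, was at 170.2, 172 and 169 CPM and then 25.5, 28.3 and 27.9 CPM (-2.64 ± 0.061), desmoplakin (DSP) at 1034, 950.4 and 995 and then 290.0, 309 and 336 CPM (-1.67 ± 0.058), and plakoglobin (JUP) and PERP were at -1.30 and -2.0. Of 17 tight junction genes, 2 rose and 3 fell, near the shares of all genes, among them CLDN1, the claudin of the epidermal barrier, which was at 462, 479.7 and 469.6 and then 79.5, 88.1 and 91.3 CPM (-2.45 ± 0.052). The connexin GJB5 was called lower as well (-1.16), whereas GJA5 (connexin 40) rose as given above.

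Of 18 EMT genes tested, CDH2 (N-cadherin) and fibronectin (FN1) rose and SNAI2, ZEB2, S100A4 and FOXC2 fell, shares of 11.1% and 22.2% beside 10.6% and 14.4% of all genes, so the list stood near the background. FN1 was at 19.1, 18.1 and 17.9 CPM without Dox and 165, 165 and 200.1 CPM at 48 h (3.26 ± 0.076), while the transcription factor SNAI2 was at 31.2, 30.9 and 31.2 and then 8.59, 10.6 and 9.79 CPM (-1.69 ± 0.088). E-cadherin (CDH1) was at 220.2, 217 and 223 and then 251, 259.7 and 270.3 CPM (0.24 ± 0.044), and vimentin (VIM) was at 597, 594 and 635 and then 476, 428 and 433 CPM (-0.45 ± 0.053), and neither was called. The difference of SNAI2 from 24 h was -1.44.

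Genes of the NF-kB response fell. Of 23 subunits, feedback inhibitors and targets tested, 14 were called lower and 1 higher, with a median of -1.96. NF-kB dimers are held by IkB proteins and, once freed, induce their own inhibitors together with chemokines and survival genes. BIRC3, a ubiquitin ligase that limits cell death, was at 826, 825 and 803 CPM without Dox and 44.8, 55.0 and 50.3 CPM at 48 h (-4.03 ± 0.085, adjusted p = 6.43e-20). NFKBIA, which encodes the inhibitor IkB-alpha, was at 235, 245 and 242 and then 55.4, 54.0 and 53.9 CPM (-2.14 ± 0.052), and TNFAIP3, the deubiquitinase A20, was at 69.9, 67.3 and 66.5 and then 7.80, 8.66 and 8.95 CPM (-3.01 ± 0.082). SOD2, the mitochondrial superoxide dismutase, was at 4994, 4924 and 4817 CPM without Dox and 98.3, 106 and 102 CPM at 48 h. In these genes no 48 h library overlapped a No Dox library.

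Subunits differed. RELB and REL were called lower (-2.69 ± 0.11 and -1.96 ± 0.17), and in REL the 48 h libraries spread from 4.87 to 10.6 CPM. NFKB1 was at -0.57 ± 0.051 and RELA at -0.022 ± 0.077, and neither was called. ICAM1, an adhesion molecule often induced by NF-kB, was at 62.1, 59.4 and 61.8 and then 71.6, 67.7 and 64.7 CPM (0.15 ± 0.063), and its 72 h mean was 162 ± 11.2 CPM. The chemokine CCL2 was the member that rose, from 0.829, 1.39 and 1.23 to 5.71, 5.74 and 3.50 CPM (2.15 ± 0.25).

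All 7 genes tested on the list of neutrophil chemokines and receptors, which also holds the growth factor CSF3, fell, with a median of -5.19. CXCL1 was at 168, 167 and 174 CPM without Dox and 10.8, 7.57 and 9.92 CPM at 48 h (-4.18 ± 0.10), with differences of -1.94 ± 0.11 from 24 h and 2.01 ± 0.16 from 72 h, so that its level fell from each time point to the next. CXCL8 (interleukin 8) was at 82.0, 86.6 and 82.8 and then 0.298, 0.0870 and 0.195 CPM. Of 9 interleukin-1 family genes, 4 fell and none rose, with IL1B at 31.1, 33.1 and 31.9 and then 5.37, 4.13 and 4.60 CPM (-2.77 ± 0.12) and IL1A at -0.79 ± 0.057, not called. The leukocyte marker sum given above, whose most abundant members were CD14 and CD68, fell in the same libraries, with PTPRC under 0.02 CPM. The labels name only MCF10A cells, and the part of that sum in these values was not tested.

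**Figure D5:**
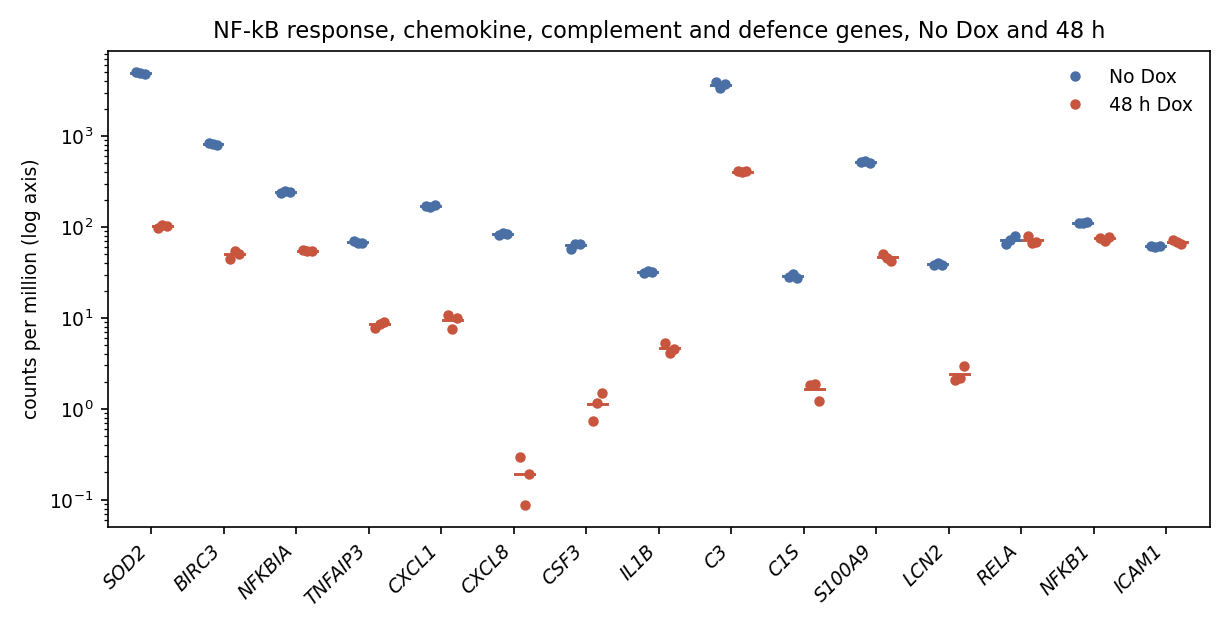
CPM on a log axis in each of the 3 No Dox and 3 Dox 48 h libraries for NF-kB targets, chemokines, IL1B, complement and defence genes and for RELA, NFKB1 and ICAM1; each point is 1 library. SOD2 lies between 4817 and 4994 CPM without Dox and between 98.3 and 106 CPM at 48 h, while the points of RELA overlap between groups.

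NF-kB binds GGGACTTTC or GGGAATTTC, and the promoters of NFKBIA and TNFAIP3, which encode its feedback inhibitors and fell at 48 h, are shown with these letters in capitals. They stand as their reverse complements GAAATTCCC and GAAAGTCCC on the strands printed. The stretches are chr14:35404801-35404849 on the minus strand for NFKBIA (-100 to -52) and chr6:137867173-137867221 on the plus strand for TNFAIP3 (-86 to -38).
NFKBIA: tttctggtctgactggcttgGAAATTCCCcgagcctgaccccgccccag
TNFAIP3: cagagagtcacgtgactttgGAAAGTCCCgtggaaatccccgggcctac

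The letters were in 7 of 23 promoters of the NF-kB list (30.4%), those of NFKB1, REL, NFKBIA, NFKBIZ, TNFAIP3, LTB and TNFRSF9, against 0.712% of promoters of tested genes and 0.71% of all promoters. Among all genes that rose 0.949% held them, and among those that fell 1.37%.

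Complement genes fell, 13 of 18 tested, with 2 higher and a median of -1.67. Complement is a cascade of plasma proteins that epithelia also secrete. C3 (chr19:6677704-6730562, minus strand), its central component, was at 3879, 3339.8 and 3704 CPM without Dox and 407, 397 and 411 CPM at 48 h (-3.17 ± 0.059, adjusted p = 9.24e-21). The proteases of the first component, C1R and C1S, were at 117, 106 and 109.6 and 28.2, 30.6 and 27.4 CPM and then at 10.7, 10.7 and 9.40 and 1.84, 1.87 and 1.23 CPM (-3.43 ± 0.091 and -4.08 ± 0.15). SERPING1, which inhibits them, was called lower (-3.19). C4A and C4B were called lower as well, and their reads may be shared between the 2 genes, and C4A was at -0.984 with effective lengths and then not called. C3, C1R, C1S, SERPING1, C4A and C4B were each lower in every 48 h library, and C1R was 1.27 above its 24 h level. The receptor C5AR1, given above, was 1 of the 2 members called higher (1.73).

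S100 proteins, small calcium-binding proteins of epithelia and phagocytes, fell in 9 of 12 genes tested, with a median of -1.88 and none higher. S100A9 was at 512, 532 and 504 CPM without Dox and 51.0, 45.9 and 41.7 CPM at 48 h (-3.48 ± 0.070), and its partner S100A8 was at 153, 151 and 144 and then 10.6, 8.66 and 7.52 CPM (-4.05 ± 0.091). At 24 h their means were 20.8 ± 2.22 and 3.53 ± 0.214 CPM, and at 72 h 3.94 ± 0.197 and 1.08 ± 0.345 CPM, so 48 h lay above both other Dox times while remaining below No Dox. Of 10 secreted defence proteins, 7 fell, among them lipocalin-2 (LCN2) at 38.1, 40.5 and 38.6 and then 2.09, 2.18 and 2.98 CPM (-4.04 ± 0.12), CHI3L1 (-5.63 ± 0.18) and SLPI (-1.81 ± 0.081). OLFM4 went from 7.51, 7.26 and 5.96 CPM to 0 in every 48 h library, at least 135-fold lower.

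Interferon-stimulated genes split. Of 27 tested, 6 rose (22.2%) and 8 fell (29.6%), beside 10.6% and 14.4% of all genes, with a median of 0.01. IFIT1, which binds foreign RNA ends, was at 1.2, 1.07 and 0.739 CPM without Dox and 8.59, 6.66 and 8.36 CPM at 48 h (2.96 ± 0.19), and IFIT2 was at 3.13, 2.97 and 2.71 and then 10.1, 10.1 and 8.56 CPM (1.71 ± 0.15), while OAS1, which senses double-stranded RNA, was at 44.5, 41.5 and 44.4 and then 6.46, 4.13 and 5.32 CPM (-3.05 ± 0.12) and IFI44L was at -3.11. IFIT1 and IFIT2 were lower at 48 h than at 72 h, with log2 differences of -1.10 and -1.33. Across other scalings the median of this list lay between -0.06 and 0.01.

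Of 20 antigen presentation and checkpoint genes, 5 rose (25%) and 2 fell (10%), beside 10.6% and 14.4% of all genes. CD274 (PD-L1) was at 0.922, 1.26 and 1.18 CPM without Dox and 14.4, 16.7 and 14.3 CPM at 48 h (3.77 ± 0.14, adjusted p = 1.49e-15), and PDCD1LG2 (PD-L2) was at 0.415, 0.253 and 0.345 and then 5.42, 5.44 and 4.67 CPM (3.89 ± 0.24). NECTIN2 and PVR, ligands of TIGIT, rose by 2.28 and 1.43. HLA-E and the peptide-loading protein TAPBP were called lower, at -1.24 and -1.2. The groups did not overlap for any of these 6 genes.

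Steroid, alcohol and retinoid enzymes fell in 15 of 21 genes tested, with none higher and a median of -3.26. AKR1C1, AKR1C2 and AKR1C3, ketosteroid reductases so alike that their reads may be shared, were at 254 ± 14.7, 507 ± 12.2 and 139 ± 6.66 CPM without Dox and at 2.51 ± 0.686, 6.29 ± 0.880 and 3.32 ± 0.552 CPM at 48 h. Of 19 ABC transporters, 12 fell and 2 rose. The lipid transporter ABCA6 was at 117, 116 and 119 CPM without Dox and 0.845, 1.17 and 0.648 CPM at 48 h (-6.98 ± 0.11), and the drug pump ABCC3 was at 539, 522 and 521 and then 63.1, 54.0 and 61.7 CPM (-3.15 ± 0.058). ABCA8, of the same subfamily as ABCA6, went the other way, from 0.0922, 0.505 and 0.394 to 14.8, 14.8 and 15.2 CPM (5.55 ± 0.22).

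Prostaglandin genes showed 4 higher (28.6%) and 5 lower (35.7%) of 14, beside 10.6% and 14.4% of all genes. HPGD, which inactivates prostaglandins, was at 18.5, 18.7 and 19.2 CPM without Dox and 0.149, 0.522 and 0.324 CPM at 48 h (-5.76 ± 0.25), and ALOX15B, a lipoxygenase, was at 107, 104 and 113 and then 2.43, 1.57 and 1.04 CPM (-5.97 ± 0.12). PTGS1 (COX-1) fell, with a log2 fold change of -1.93, while PTGS2 (COX-2) rose by 1.85, and the difference of PTGS2 from 72 h was -2.47.

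Of 23 cholesterol synthesis genes and SREBP2 targets, 8 rose, none fell and the median was 0.64. HMGCS1, an early enzyme of the mevalonate pathway, was at 86.6, 83.9 and 87.7 CPM without Dox and 252, 279.9 and 281 CPM at 48 h (1.65 ± 0.053), and INSIG1, a sterol-regulated retention protein of the ER, was at 49.8, 47.1 and 47.8 and then 142, 142 and 141 CPM (1.55 ± 0.056). Of 20 fatty acid genes, ACLY, ACACB and SCD5 rose and FADS3, ACSL1 and ACSL5 fell, near the shares of all genes, with ACSL1, which activates fatty acids, at 676, 655 and 665 and then 123, 125 and 119 CPM (-2.44 ± 0.048). Of 28 glycolysis and hypoxia genes, 4 rose (14.3%) and 1 fell (3.57%), the carbonic anhydrase CA9, at under 2 CPM in every library. Of 16 NRF2 and glutathione genes, 3 rose and 3 fell (18.75% each). The shares of all genes were 10.6% higher and 14.4% lower.

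EGF-family ligands divided. Of 13 ligands and receptors tested, 2 rose (15.4%) and 5 fell (38.5%), beside 10.6% and 14.4% of all genes. NRG1 (neuregulin 1), a ligand of ERBB3 and ERBB4, was at 1.84, 1.14 and 1.68 CPM without Dox and 29.8, 28.7 and 30.1 CPM at 48 h (4.21 ± 0.13). EREG was at 28.2, 29.6 and 28.9 and then 7.15, 7.44 and 8.30 CPM (-1.93 ± 0.097), and HBEGF was at 23.2, 22 and 21.2 and then 5.81, 5.57 and 5.25 CPM (-1.99 ± 0.11). ERRFI1 (MIG6), a feedback inhibitor of EGFR, was at 609.5, 613 and 624 and then 105, 106 and 107 CPM (-2.54 ± 0.046), after 40.6 ± 1.72 CPM at 24 h. EGFR itself was at -0.87 ± 0.058 and not called. So amphiregulin (AREG), at 3.03 ± 0.050, and NRG1 lay above No Dox and the other called ligands below it.

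Of 20 ERK feedback genes, 2 rose and 4 fell, near the 10.6% and 14.4% of all genes. DUSP6, an ERK phosphatase, was at 110.0, 108 and 114 CPM without Dox and 26.3, 25.8 and 25.6 CPM at 48 h (-2.10 ± 0.068), the immediate-early factor EGR1 was at 244, 231 and 250.2 and then 20.2, 16.5 and 20.0 CPM (-3.68 ± 0.089), and the ETS factor ETV5 was at 28.8, 28.7 and 31.1 and then 74.4, 75.1 and 76.6 CPM (1.35 ± 0.059). Of 23 AP-1 and MYC family genes, 2 rose and 8 fell. FOS was at 93.6, 95.4 and 97.9 and then 3.83, 4.96 and 3.05 CPM (-4.56 ± 0.10), JUNB at 153, 145 and 163 and then 26.7, 26.5 and 24.7 CPM (-2.56 ± 0.070), and MYC at 587, 598 and 597 and then 273, 257 and 266 CPM (-1.16 ± 0.045). MXD4 and MXI1, which compete with MYC for MAX, were called lower, at -2.17 and -1.61, and ATF3 rose by 2.22. Each of these genes lay in separate ranges in the 2 groups.

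Of 24 TGF-beta and BMP genes, 8 rose (33.3%) and 6 fell (25%), beside 10.6% and 14.4% of all genes. The ligands BMP4, BMP6 and INHBA rose from under 1 CPM, by 2.80, 2.69 and 2.97, and the BMP targets ID1 and ID3 rose by 1.4 and 1.28, with ID1 at 75.0, 82.0 and 80.4 CPM without Dox and 219, 202 and 203 CPM at 48 h. NOG (noggin), which binds BMPs, was called lower, at -3.52, as were the co-receptor TGFBR3, at -1.55, and the latent TGF-beta binding protein LTBP1, at -1.52. ID1 was at 85.1 ± 4.49 CPM at 24 h, so its difference from 24 h was 1.29 ± 0.064.

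Of 26 WNT and Notch genes, 5 rose (19.2%) and 6 fell (23.1%), beside 10.6% and 14.4% of all genes. WNT5A rose by 1.18 and differed from its 72 h level by -1.01, while the WNT inhibitor DKK1 was at 298, 323 and 317 CPM without Dox and 97.6, 91.7 and 98.6 CPM at 48 h (-1.71 ± 0.051). The Notch ligand DLL1 was at 12.3, 13.7 and 14 and then 1.29, 0.957 and 1.10 CPM (-3.57 ± 0.19) and the Notch target HES1 at 18.7, 17.6 and 19.8 and then 3.43, 3.18 and 2.79 CPM (-2.57 ± 0.15). NOTCH1 and JAG1 were at -1.50 and -1.45. The called Notch genes, NOTCH1, NOTCH3, JAG1, DLL1 and HES1, were thus all lower at 48 h.

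Insulin, FOXO and quiescence genes fell in 13 of 23 genes tested, with IGFBP3, IGFBP4 and IRS1 higher and a median of -1.07. TXNIP, which restrains glucose uptake and thioredoxin, was at 1407, 1479 and 1454 CPM without Dox and 49.6, 52.3 and 52.8 CPM at 48 h (-4.81 ± 0.067, adjusted p = 1.15e-22), between 12.9 ± 0.978 CPM at 24 h and 167 ± 15.1 CPM at 72 h. PDK4, which slows entry of pyruvate into the citric acid cycle, was at 95.0, 99.7 and 102 and then 2.98, 4.05 and 3.05 CPM (-4.86 ± 0.096). IRS1 rose by 1.36 while IRS2, its paralog, was called lower, at -1.27. Of 16 clock genes, 6 fell (37.5%) and 1 rose (6.25%), beside 14.4% and 10.6% of all genes. Those that fell included PER2 (-3.38 ± 0.19) and NR1D1 (-2.39 ± 0.20). CRY1 rose from 10.1, 11.2 and 10.0 to 36.1, 36.2 and 37.7 CPM (1.82 ± 0.081).

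Matrix genes rose more often than they fell, 11 against 4 of 23 tested, with a median of 1.08. EFEMP1 (fibulin-3) was at 182, 177 and 183 CPM without Dox and 1329, 1362 and 1354 CPM at 48 h (2.90 ± 0.043, adjusted p = 2.65e-22). The fibrillin gene FBN2 was at 295, 257 and 262 and then 1309.7, 1436 and 1627 CPM (2.43 ± 0.072). COL4A1 and COL4A2, the ubiquitous chains of basement membrane collagen, rose by 1.39 and 1.36, and LOXL2, which cross-links collagen, by 2.09. COL16A1 and COL6A1 fell, with log2 fold changes of -3.54 and -1.61. FBN2 was higher than at 24 h by 1.18.

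In the plasminogen system 4 of 14 genes rose (28.6%) and 5 fell (35.7%), beside 10.6% and 14.4% of all genes. The receptor PLAUR rose by 1.67 while its ligand urokinase (PLAU) was at 31.6, 32.5 and 34.7 CPM without Dox and 10.9, 11.1 and 14.5 CPM at 48 h (-1.45 ± 0.098), after 33.4 ± 0.396 CPM at 24 h. TIMP1, an inhibitor of metalloproteases, was at 288, 283 and 307 and then 126, 101 and 109.6 CPM (-1.38 ± 0.076), and ADAMTS1, a protease of versican, went from 1.24, 1.45 and 1.48 to 22, 24.6 and 24.2 CPM (4.08 ± 0.13). Of 14 integrins, 6 fell and none rose. ITGB8, which activates latent TGF-beta, was at 148, 133 and 137 CPM and then 15.8, 17.4 and 18.8 CPM (-3.01 ± 0.077), ITGB6, which does the same, was at 24.5, 22 and 22.9 and then 3.28, 3.79 and 3.37 CPM (-2.73 ± 0.12), and the collagen receptor ITGA10 had a log2 fold change of -4.79.

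Of 17 contractile and SRF target genes, 6 rose and 1 fell. Beta-actin (ACTB) was at 1805, 1715 and 1898 CPM without Dox and 7425, 6924 and 6632 CPM at 48 h (1.95 ± 0.053, adjusted p = 3.64e-18), ACTN1 at 283, 261 and 277 and then 897, 885 and 903 CPM (1.71 ± 0.043), and TAGLN at 9.95, 9.03 and 8.52 and then 52.6, 48.7 and 46.5 CPM (2.42 ± 0.084). ACTB is often used to normalize other assays, and each of its 48 h libraries lay above each of its No Dox libraries.

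Of 24 p53 targets, 4 rose and 3 fell, near the 10.6% and 14.4% of all genes. PLK2, a polo-like kinase of centriole duplication, was at 22.9, 24.2 and 25.8 CPM without Dox and 365, 371 and 375 CPM at 48 h (3.93 ± 0.055, adjusted p = 1.15e-22), and TP53I3 was at 103, 108 and 105 and then 32.5, 28.3 and 27.3 CPM (-1.84 ± 0.065). In the BCL2 family, HRK and PMAIP1 (NOXA), which promote apoptosis, rose by 1.15 and 1.11, the survival gene BCL2L1 rose by 1.04 (0.983 with upper-quartile scaling, not called), and the pro-apoptotic BCL2L11 (BIM) fell from 37.2, 37.1 and 38.0 to 7.05, 8.22 and 10.1 CPM (-2.16 ± 0.11). HRK was 2.27 above its 24 h level, and its difference from No Dox was 0.988 with DESeq2 and effective lengths, which was not called.

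Ribosome biogenesis genes showed 1 call among 23, upward, with a median of 0.48. None of 13 mRNAs of the mitochondrial genome was called, with a median of -0.42, while the mitochondrial ribosomal RNA MT-RNR2 was at 6968, 7170.1 and 6855 CPM without Dox and 1437, 1297 and 1393 CPM at 48 h (-2.35 ± 0.066). Mitochondrial ribosomal RNAs held 0.804% of counts without Dox and 0.234%, 0.18% and 0.182% at 24, 48 and 72 h. As the RNA was poly(A)-selected, such counts depend on what passed that step, and its part in the difference was not tested. Of 22 well-known long noncoding RNAs, 2 rose and 6 fell (9.09% and 27.3%), near the 9.14% and 23.3% of all 1423 long noncoding RNAs tested. NEAT1, the scaffold of paraspeckles, was at 1845, 1983 and 1595 CPM and then 214, 251 and 258 CPM (-2.91 ± 0.099), MALAT1 was at 277, 290.1 and 266 and then 103, 117 and 114 CPM (-1.32 ± 0.064), and the imprinted H19 was at 26.7, 22 and 22 and then 109, 104 and 99.3 CPM (2.14 ± 0.11). MALAT1 was back at 342 ± 23.4 CPM at 72 h.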

How the data were processed

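RNA-seq was done on 12 libraries of MCF10A cells, 3 for each of No Dox, 24 h, 48 h and 72 h. The authors prepared stranded paired-end libraries from poly(A)-selected RNA and aligned the reads with STAR to GRCh38 and GENCODE genes, and STAR, RSEM and GRCh38 are also named in the submitters' processing notes with no version, and no strand setting was stated. The values deposited by the authors were RSEM expected counts per gene, transcripts per 1000000 (TPM), gene lengths and effective lengths in nt, and the posterior standard deviation of each count, entered here as a score of reads shared between genes. FPKM values were not used. Expected counts were rounded to whole numbers. A gene's reads were named as shared where that score was above 5% of its count.

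Genes were kept by edgeR's filterByExpr, which left 14822, and scaled by TMM. The edgeR (version 4.0.16, R version 4.3.3) quasi-likelihood test was fitted over all 12 libraries with 1 mean per group, and p-values were Benjamini-Hochberg adjusted over all genes tested. The biological coefficient of variation was 5.71%. The script was tested on simulated data. Gene lists are described by counts and medians, with no set test. Where a group had no count, a fold is a bound against a floor of 3 counts over the group, and count intervals are 95% exact and cover counting error only.

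Gene symbols were matched by identifier, and coordinates come from a GENCODE annotation of GRCh38. Promoters were RefSeq sequences of GRCh38.p14. Alternatives were DESeq2 (version 1.42.0), other scalings and filters, effective lengths, a minimum fold within the test, the 6 libraries alone, a replicate block, and each replicate left out. The gene lists and the members were chosen with earlier results of these data known. Genes named were a fixed panel, the 10 highest and the 10 lowest protein-coding calls with at least 5 CPM and no overlap between groups, up to 4 called members per direction and the 2 most abundant members of each list, and the 10 genes most above or below both 24 h and 72 h. Some genes named by this rule are not reported here. The other genes in the text were chosen after their values were seen.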

Additional observations from a re-analysis of the deposited data

Results flagged for a closer look

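Groups of 3 libraries are too small for a test of single libraries that lie apart. Genes named above were singled out where the change from No Dox at 48 h differed from that at 24 h or at 72 h by the test of the difference itself. These are contrasts of the same model that share the 48 h libraries. Each value is the log2 level at 48 h minus that at the other time.

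Against 24 h, most of the larger differences were increases. Among ATF4 targets, amino-acid enzymes and tRNA synthetases they were 2.90 for CHAC1, 3.16 for VLDLR, 2.63 for CBS, 2.22 for SLC1A4 and 2.17 for ASNS. PHGDH, DDIT4, STC2, PSAT1, ATF3 and GPT2 followed with 1.93, 1.81, 1.70, 1.65, 1.63 and 1.61. PSPH, SESN2, TRIB3 and CARS1 had 1.29, 1.26, 1.11 and 1.04, and GDF15 had 2.02. PRODH and ASS1, which were lower than in No Dox, were nonetheless higher than at 24 h, by 2.47 and 1.18.

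Other genes called higher than No Dox were also called higher at 48 h than at 24 h. ADM2 differed by 3.85, KRT4 by 3.51, KRT13 by 4.33, C5AR1 by 4.2, ABCA8 by 2.88, KIF21B by 2.79, ALPP by 2.66 and RNF150 by 2.42. CCL2, HRK, H19 and OLR1 differed by 2.23, 2.27, 1.96 and 1.64. MFAP5, PPME1, ID1 and IFIT2 differed by 1.61, 1.4, 1.29 and 1.27, and FBN2, DENND2A, ACACB and WNT5A by 1.18, 1.18, 1.17 and 1.07. The difference of KRT16, which was not called against No Dox, was 1.31.

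A further set lay below No Dox at 48 h but above its own 24 h level. KDR differed by 3.07, ELF3 by 2.65, TXNIP by 2.0, MUC1 by 1.74, PPL by 1.74 and FOS by 1.61. SERPING1, KRT15, ERRFI1 and S100A8 differed by 1.46, 1.4, 1.38 and 1.35. C1R, H2BC21, S100A9 and C4B differed by 1.27, 1.25, 1.16 and 1.13, and DSG3 and LCN2 by 1.08 and 1.08.

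Decreases from 24 h to 48 h included -3.30 for CXCL8, -2.57 for CSF3, -1.94 for CXCL1, -1.76 for TNFAIP3 and -1.37 for RELB. Inflammatory lists did not share this direction. Against 24 h the neutrophil chemokine list had 3 members called lower and 0 higher, and the NF-kB list 2 lower and 1 higher. The complement and secreted defence lists each had 4 called higher and 0 lower, and the S100 list 2 in each direction. NOTCH3, KRT6B, HSD17B2 and DCN had -3.96, -3.77, -2.53 and -2.49. AKR1C1, AKR1C2 and AKR1C3 had -1.30, -1.10 and -1.34. OR2A7, COL17A1, PLAU, ITGB6 and SNAI2 had -1.61, -1.53, -1.47, -1.46 and -1.44, and CA9, COL16A1, CD68, F3 and SNCG had -1.29, -1.18, -1.15, -1.09 and -1.01.

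Against 72 h, fewer genes stood higher at 48 h. S100A9 and S100A8 differed by 3.55 and 2.99, C5AR1 by 3.15, CHAC1 by 2.16, CXCL1 by 2.01 and EDN2 by 1.70. E2F2, PER2, CHI3L1 and CCNE2 differed by 1.32, 1.32, 1.26 and 1.19, and SESN2, KRT80, ADM2, ALPP and S100A4 by 1.13, 1.13, 1.06, 1.01 and 1.01.

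More of the named genes stood lower at 48 h than at 72 h. NOTCH3 and DEPP1, which were at or near 0 at 48 h, differed by -3.41 and -3.29, OR2A7 by -2.61, PTGS2 by -2.47, NGFR by -2.32 and KDR by -2.15. KRT13, TXNIP, ALOX15B, KRT15 and MALAT1 differed by -1.89, -1.70, -1.65, -1.64 and -1.62. EGR1, CA9, SNCG, IFIT2 and ICAM1 differed by -1.43, -1.35, -1.35, -1.33 and -1.25. ANKRD1, CLDN4, NEAT1, PRODH and PSG4 differed by -1.18, -1.19, -1.18, -1.16 and -1.15. IFIT1, RNF150, C1S and GDF15 differed by -1.10, -1.08, -1.05 and -1.05, and SDCBP2, VGLL3, WNT5A and H2BC21 by -1.03, -1.02, -1.01 and -1.01.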

How the results depend on the processing

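The counts of genes called at 48 h against No Dox depended most on the fold threshold. With the adjusted p alone 5342 genes were higher and 5305 lower, and with a minimum fold within the test (glmTreat) 1054 were higher and 1410 lower. Across DESeq2, other scalings and filters, effective lengths, the 6 libraries alone and protein-coding genes alone, between 1284 and 1729 genes were called higher and between 1716 and 2544 lower. Leaving out each replicate gave 1568 to 1623 higher and 2133 to 2244 lower. The fit with the replicate number as a block gave 1571 and 2140, and the numbers did not pair the libraries, as the deviations of same-numbered No Dox and 48 h libraries had correlations of -0.136, 0.065 and -0.097. The count of genes highest at 48 h lay between 29 and 35. The count of genes lowest at 48 h was 14 with effective lengths in edgeR and lay between 17 and 29 when 1 replicate was left out, with 17 without the 72 h replicate 1 and 29 without the 48 h replicate 1. Of the named genes that were called, 20 lost the call under at least 1 alternative, 9 of them under one other than glmTreat, and none reversed. Those that lost it under glmTreat were ACACB, BCL2L1, C5AR1, CDKN1A, GJB5, HRK, KRT86, MUC1, OXTR, PMAIP1, RBL2, RBMS3, SCD5, SESN2, SLC1A5, TEAD4 and WNT5A. ASPM, TAFAZZIN and VGLL3, not called in the fit reported, were called with effective lengths in both tools. Total counts of 15382564 to 22956337 limit what can be said of genes with few counts, for which only bounds or wide count intervals are given.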
